A study of Mus musculus with 4 samples.

Results

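Divergent coding gene pairs are neighbouring protein-coding genes that are transcribed away from each other, so that their 5′ ends face one another. In the gene annotation deposited with this series, a pair was taken where a gene on the minus strand lay to the left of a gene on the plus strand and the 5′ ends were 1 to 1000 bases apart. The 5′ end was the outermost exon base over the protein-coding transcripts of a gene, and chromosomes 1 to 19 and X were read. This gave 782 pairs with 1556 different genes, which is 7.17% of the 21714 coding genes considered. The remaining 20158 coding genes were in no such pair. The choice rested on strand and distance alone, and whether both genes of a pair use the same regulatory DNA was not measured here.

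The series itself holds polyadenylated RNA libraries of bone marrow derived macrophages from C57/BL6 mice, grown with M-CSF, a growth factor of this lineage, at 50 ng/mL. It has 4 groups of 1 library each: Piezo1 fl/fl littermates without Cre (the wild type) and Piezo fl/fl LysM Cre+ mice (the knockout), with macrophages of each exposed for 6 h to static or to cyclic pressure, the latter with an amplitude of about 15 mmHg. Both genotypes carry the floxed Piezo1 gene, which encodes a mechanically gated ion channel, and LysM-Cre acts in myeloid cells and so in more cells than macrophages. No library value was analysed here, the depth of the libraries is unknown, and everything below describes the annotation, with no comparison between the groups.

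A promoter that drives transcription in both directions is called bidirectional. Such promoters are common in mammals, where they usually lie in a CpG island, a stretch of DNA rich in G, C and unmethylated CpG dinucleotides, and usually lack a TATA box. They are known for genes of DNA repair, mitochondria and other functions that every cell needs, and the 2 genes of a pair often have no known relation in function. The H2A and H2B histone genes are the classical exception, since the products of both partners sit in the same nucleosome.

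The stretch of DNA between the 5′ ends is short enough to be shown whole. The intervals below were chosen because they span the range from a nearly touching pair to the histone pairs, and none of them overlaps an annotated exon. They were read from the promoter table of RefSeq for GRCm38.p6 and are written 5′ to 3′ on the plus strand, so the minus-strand gene, named first, starts just left of the first base. Capitals mark matches, on either strand, to the letters CCAAT, which the factor NF-Y binds, to GGGCGG, the GC box of the Sp1 family, to TATAAA, the TATA box, or to CCGGAAGT, a motif of the ETS family. A match on the minus strand reads as the reverse complement.
Orc3/Rars2, chr4:34614945-34614956: agaggcgacttc
Polr3c/Rnf115, chr3:96727629-96727663: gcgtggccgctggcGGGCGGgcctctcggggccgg
Sdhd/Timm8b, chr9:50603850-50603900: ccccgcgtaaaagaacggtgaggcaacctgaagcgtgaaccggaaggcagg
Hadha/Hadhb, chr5:30155163-30155247: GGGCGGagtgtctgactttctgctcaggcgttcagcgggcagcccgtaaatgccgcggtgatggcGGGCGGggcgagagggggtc
Wrap53/Trp53, chr11:69580256-69580358: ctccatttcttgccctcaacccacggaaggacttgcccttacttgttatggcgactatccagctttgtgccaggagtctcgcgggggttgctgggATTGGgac
Mrpl43/Peo1, chr19:45006443-45006557: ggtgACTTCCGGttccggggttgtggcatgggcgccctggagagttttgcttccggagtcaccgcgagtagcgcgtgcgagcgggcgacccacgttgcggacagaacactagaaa
Hist2h2ac/Hist2h2be, chr3:96220881-96221118: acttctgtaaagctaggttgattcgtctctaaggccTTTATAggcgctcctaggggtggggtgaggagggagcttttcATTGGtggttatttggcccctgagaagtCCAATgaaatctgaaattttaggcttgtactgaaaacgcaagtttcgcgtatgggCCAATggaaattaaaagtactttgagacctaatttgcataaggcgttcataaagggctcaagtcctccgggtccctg
Hist1h2ap/Hist1h2br, chr13:21833508-21833742: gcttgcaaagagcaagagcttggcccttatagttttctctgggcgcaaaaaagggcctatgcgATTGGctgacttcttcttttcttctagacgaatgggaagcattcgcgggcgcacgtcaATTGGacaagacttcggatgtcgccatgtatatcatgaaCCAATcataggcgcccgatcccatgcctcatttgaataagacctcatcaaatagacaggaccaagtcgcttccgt

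These printed intervals are examples, and their base composition varied. Hadha and Hadhb encode the subunits of the mitochondrial trifunctional protein of fatty acid oxidation, and their interval of 85 bases was 69.4% G and C, held 9 CpG dinucleotides and had 2 GC boxes. Polr3c encodes a subunit of RNA polymerase III, and the 35 bases between it and Rnf115 were 88.6% G and C. Mrpl43 encodes a protein of the mitochondrial ribosome and Peo1 the mitochondrial DNA helicase. Their interval of 115 bases held 13 CpG and an ETS match; it was chosen as an example after its letters were seen. The interval between Wrap53 and Trp53, the gene of the tumour suppressor p53, held 4 CpG in 103 bases and was 56.3% G and C. The 238 bases between Hist2h2ac and Hist2h2be were 45.8% G and C, with 7 CpG, 3 CCAAT matches and a TATA match. Between Hist1h2ap and Hist1h2br, 235 bases were 48.5% G and C and held 3 CCAAT matches. A match is a description of the letters and not a binding site.

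Most pairs were closer than the limit of the rule requires. The distance, counted as the difference of the coordinates of both 5′ ends so that a distance of 104 leaves 103 bases between them, had a median of 141 bases and quartiles of 73.3 and 276. The closest pairs were 3 bases apart and the widest 994. Up to 100 bases separated 287 pairs (36.7%), up to 200 bases 499 (63.8%), up to 300 bases 609 (77.9%) and up to 500 bases 701 (89.6%). Only 23 pairs (2.94%) lay within 20 bases.

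**Figure D1:**
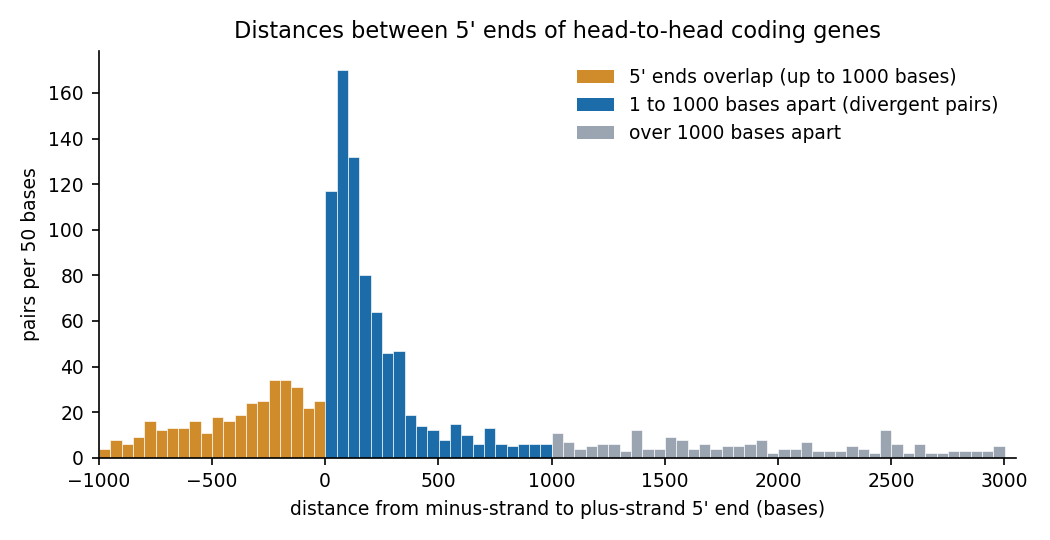
Number of pairs of head-to-head coding genes per 50 bases, against the distance in bases from the minus-strand to the plus-strand 5′ end. Negative distances are 5′ ends that overlap; the divergent pairs, 1 to 1000 bases apart, peak below 150 bases, with a median of 141, and the counts level off well before the limit of 1000.

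The number of pairs fell steeply with distance and then levelled off. Between 1 and 500 bases there were 701 pairs, between 501 and 1000 bases 81, and between 1001 and 1500 bases 62. From there to 10000 bases each further step of 500 bases held 35 to 66 pairs. On the other side, where the annotated 5′ ends overlap and the rule takes no pair, 248 pairs overlapped by up to 500 bases and a further 108 by up to 1000. The other orientations were rarer at this spacing: with facing ends 1 to 1000 bases apart there were 565 convergent pairs (3′ ends facing) and 548 tandem pairs (same strand). Divergent pairs made up 41.3% of these 1895 neighbours.

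The closest pairs were of mixed function. At 3 bases stood Dhrs1 with Nop9, Tpgs2 with AW554918, and Slc7a6os with Prmt7, and at 4 bases 2810004N23Rik with Gnpat and Bag5 with Apopt1. Nop9 encodes a factor of ribosome assembly, Tpgs2 a subunit of the tubulin polyglutamylase complex, Prmt7 an arginine methyltransferase, Gnpat an enzyme of ether lipid synthesis and Bag5 a co-chaperone of Hsp70. Just inside the limit were Asphd1/Sez6l2 at 981 bases, Btf3l4/Txndc12 at 987 and the ABC transporter genes Abca17/Abca3 at 994. Just outside it were 5330417C22Rik/1700013F07Rik at 1005, Serpina7/4930513O06Rik at 1007 and Smim7/Tmem38a at 1015. At the lower limit Capza1/St7l, Arel1/Fcf1 and Cept1/Dram2 missed the set because their ends overlapped, at distances of -2, -3 and -4 bases.

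Several pairs of the textbooks were in the set. Col4a4 and Col4a3, which encode chains of the basement membrane collagen of the kidney filter, were 127 bases apart, and Hadha and Hadhb 86. The tumour suppressor genes followed: Trp53 was 104 bases from Wrap53, whose product is needed for telomerase to reach its site of action, and Brca1 was 270 bases from Nbr1, an autophagy receptor gene. Atm, the kinase of the double-strand break response, was 307 bases from Npat, the activator of histone genes, and Prkdc, the catalytic subunit of DNA-dependent protein kinase, was 489 from the replicative helicase gene Mcm4. Other textbook pairs missed it because their annotated ends overlapped. The distance was -21 for Col4a1/Col4a2, -111 for the mitochondrial chaperonins Hspd1/Hspe1, -163 for Surf1/Surf2, -211 for Tap1/Psmb9, -271 for Ppat/Paics and -341 for Sirt3/Psmd13. Col4a5/Col4a6 on chromosome X were too far apart, at 1309 bases.

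The distance depends on which transcript is taken. With the transcript of the longest coding sequence in each gene, 676 pairs (86.4%) were still 1 to 1000 bases apart and 106 were farther, and the median over the 782 pairs was 222.5 bases. With transcripts of every class, 731 pairs (93.5%) stayed in range and 51 overlapped. The start codons, which mark the beginning of the protein, were a median of 2479.5 bases apart, with quartiles of 631.5 and 8701, and lay within 1000 bases in 274 pairs (35.0%). An exon of another gene lay between the 5′ ends in 20 pairs (2.56%). In 32 pairs the longest coding transcript of a partner had 0 annotated 5′ untranslated bases. Their median distance was 202 bases, against 138.5 in the other 750 pairs.

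Paired genes were fewer at both extremes of gene length. Their median span, from the first to the last exon base over coding transcripts, was 17939 bases (quartiles 7683 and 37297), against 15970 (5086 and 43920) for coding genes in no pair. That difference in medians went away when genes with placeholder names (Gm and Rik) were left out, at 17990 against 17983, and among genes with at least 2 exons it turned round, at 18915 against 20388. Spans of up to 5000 bases made up 15.6% of paired genes and 24.7% of the others, which include the olfactory and vomeronasal receptors, short genes in large families. Spans over 50000 bases made up 18.4% against 22.4%, and over 100000 bases 7.65% against 11.2%.

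**Figure D2:**
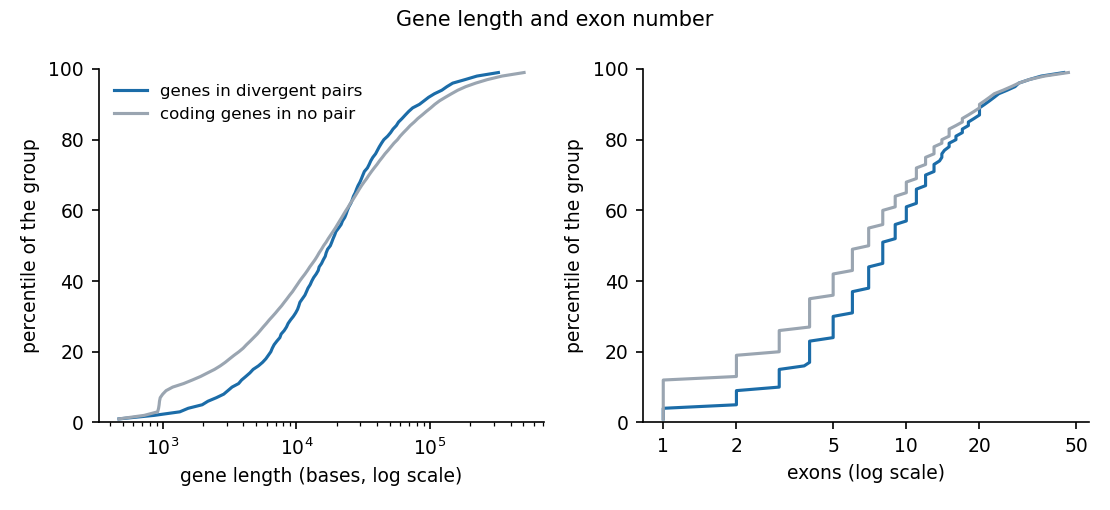
Percentiles 1 to 99 of gene length in bases (left) and of the number of exons (right), both on log axes, for the 1556 genes in divergent pairs and the 20158 coding genes in no pair. The length curves cross, since paired genes are fewer at both short and long spans, while the exon curve of paired genes lies to the right over most of its course, with medians of 8 and 7 exons.

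The medians of exon number differed by 1 exon. The transcript with the longest coding sequence had a median of 8 exons (quartiles 5 and 14) in paired genes and 7 (3 and 12) in the others. The coding sequence itself was a median of 1170 bases against 1176, or 1248 for the others without the receptors. At least 10 exons occurred in 43.8% of paired genes and in 35.1% of the others. Genes of a single exon were fewer, at 70 (4.50%) against 12.4%, or 7.02% of the others without the olfactory and vomeronasal receptors.

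The start of the gene differed in small ways. The first exon had a median of 203 bases in paired genes and 231 in the others, or 195 and 204 among genes with at least 2 exons. First introns were a median of 2458 bases long against 2878, and the upper quartile was 6340 against 10066. The untranslated part before the start codon was a median of 149 bases against 129, or 152 against 146 among genes with at least 2 exons. It was absent from the annotation in 2.25% against 12.2%, or 7.71% of the others without olfactory and vomeronasal receptors. Paired genes had a median of 4 annotated transcripts against 2, or 4 against 3 among genes with at least 2 exons. A single coding transcript occurred in 41.8% against 50.8%. Placeholder symbols were fewer, at 6.68% against 11.2%. The median number of other coding genes starting within 100 kb, with the partner left out, was 4 against 3.

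Partners resembled each other weakly in length and not in exon number. Over the 782 pairs, Spearman's rho of the spans was 0.28 and Pearson's r of their log10 values 0.29, while rho of the exon numbers was 0.01. Partners lie in the same region, and the cause of the likeness in length was not tested. These values describe the annotation only. The longer partner was a median of 2.56 times as long as the shorter, with quartiles of 1.50 and 5.29, and the ratio was over 10 in 80 pairs (10.2%). In 268 pairs both spans were above 16151 bases, the median of all coding genes, in 300 pairs one was, and in 214 none was. Between the distance and the span of the shorter partner, rho was 0.01.

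The most uneven pairs joined very long genes to small ones. Sugct spanned 836878 bases and faced Mplkip, with 3693, at 681 bases. Gm9955, with 309 bases, faced the formin gene Fhod3, with 424056, at 97 bases, the largest ratio of all at 1372. Gm3625 was the shortest member, with 102 bases, and faced Itsn2, an endocytic scaffold gene of 120943 bases, at 81. By exons, Ubr4, a giant ubiquitin ligase, led with 106, at 33 bases from Mrto4. Dst, which encodes the cytoskeletal linker dystonin, is annotated under 2 identifiers with 103 and 98 exons, and both faced Bend6, at 456 and 409 bases; this is 1 of the cases that put 8 genes in 2 pairs each. Dync2h1, the dynein motor of cilia, had 90 exons and lay 120 bases from Dcun1d5.

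By function, 34 lists of genes were counted, of which 14 had a larger share in divergent pairs than the 7.17% of all coding genes and 20 a smaller one. The lists were made from symbols and differ in size from 10 to 1104 genes. The 7 lists with over 20% were the replication-dependent histones, RNA polymerase subunits, DNA repair, mitochondrial ribosomal proteins, cilium and centrosome proteins, the respiratory chain with ATP synthase, and spliceosome proteins. The olfactory and vomeronasal receptors, keratins, defensins, Hox genes and clustered protocadherins had 0 or 1 gene in a pair each. No set test was run, and no list is called particular from these shares.

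**Figure D3:**
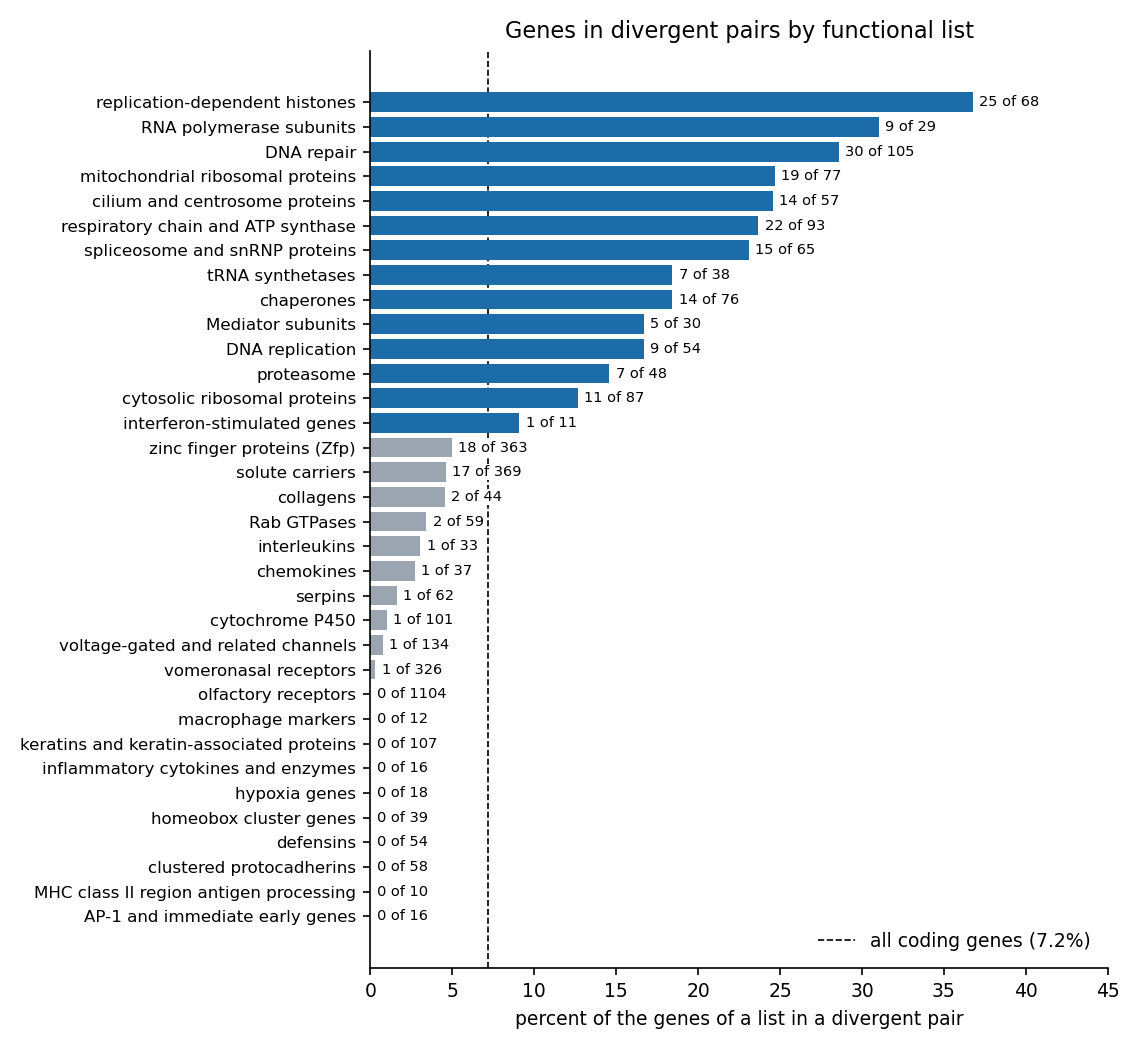
Percent of the genes of each of 34 functional lists that are in a divergent pair, with the number of such genes of the number found beside each bar and a dashed line at the share of all coding genes (7.17%). Lists above the line are mostly of basic cell machinery, led by the histones with 25 of 68. Interferon-stimulated genes (1 of 11) are also above it, while Rab GTPases (2 of 59) are below. In 10 lists, among them 1104 olfactory receptors, the share is 0.

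The replication-dependent histones, which package DNA during S phase, had the largest share. Of 68 genes 25 (36.8%) were in 13 pairs, and 12 of these pairs joined an H2A gene to an H2B gene. Their distances lay in a narrow range, from 236 bases in Hist1h2ap/Hist1h2br to 306 in Hist1h2ba/Hist1h2aa, a testis histone pair. The remaining pair was Bola1/Hist2h2ab at 156 bases. On chromosome 13, where the large histone cluster lies, 11 of the 41 pairs were histone pairs. Of the 25 histone members, 21 had a single exon and 7 had 0 annotated 5′ untranslated bases, and histone genes are near-identical copies, though each has its own coordinates here.

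DNA repair genes were in pairs in 30 of 105 cases (28.6%), in 31 pairs with a median distance of 117 bases, and none of the partners was itself in that list. Lig4, the ligase of non-homologous end joining, lay 21 bases from Abhd13. The nuclease gene Dclre1a lay 39 bases from Nhlrc2. At 44 bases stood Xpc, which recognises damage in nucleotide excision repair, with Lsm3, a protein of the U6 snRNP, and Fancd2, of the Fanconi anaemia pathway, with Emc3. Wider pairs included Wrn, the helicase gene of Werner syndrome, with Purg at 798 bases. Of the replication factors, 9 of 54 (16.7%) were in pairs, the closest being Orc3, a subunit of the origin recognition complex, with the mitochondrial arginine tRNA synthetase Rars2, at 13 bases.

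The mitochondrial lists stood well above the share of all genes. Of 77 mitochondrial ribosomal proteins, 19 (24.7%) were in 18 pairs, since Mrpl46 and Mrps11 faced each other at 53 bases. The closest were the pairs of Mrps18c with the helicase gene Helq and of Mrps34 with Eme2, each at 29 bases. Of 93 genes of the respiratory chain and ATP synthase, a list that includes assembly factors, 22 (23.7%) were in 23 pairs. Sdha, the flavoprotein of succinate dehydrogenase, lay 29 bases from Ccdc127, and Sdhd, a membrane anchor of the same enzyme, 52 bases from Timm8b, a chaperone of mitochondrial import. No pair joined 2 genes of that list.

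The machinery of gene expression followed. Of 29 RNA polymerase subunits, 9 (31.0%) were in pairs, with Polr1c 26 bases from Yipf3, Polr3c 36 from Rnf115 and Polr2b 63 from Noa1. Of 65 spliceosome proteins, 15 (23.1%) were in pairs, such as the splicing factor gene Srsf11 with Lrrc40 at 23 bases and Prpf31, a gene of retinitis pigmentosa, with Tfpt at 56. Of 38 tRNA synthetases, 7 (18.4%) were in pairs, among them Yars with S100pbp at 33 bases and Kars with Terf2ip, a telomere protein gene, at 36. Mediator, which links activators to RNA polymerase II, had 5 of 30 (16.7%). The cytosolic ribosomal proteins, at 11 of 87 (12.6%), had a smaller share than the mitochondrial ones, with Rps28/Ndufa7 at 29 bases the closest.

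Protein quality control and cilia gave further pairs. Chaperones were in pairs in 14 of 76 cases (18.4%), including the stress-inducible Hspa1a with its paralog Hspa1l at 547 bases. The proteasome had 7 of 48 (14.6%), and Psmc2, an ATPase of its cap, lay 32 bases from the ribosome-associated chaperone gene Dnajc2. Of 57 genes of intraflagellar transport, Bardet-Biedl and centrosomal proteins, 14 (24.6%) were in pairs, among them Ift20 with Tnfaip1 at 29 bases, Cep44 with Fbxo8 at 43 and Cep19 with Pigx at 62.

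Several other gene families, some of them tissue-specific, had small shares. No olfactory receptor of 1104 and no keratin or keratin-associated gene of 107 was in a pair, nor any of 54 defensins, 39 genes of the homeobox clusters and 58 clustered protocadherins. Of 326 vomeronasal receptors 1 was in a pair, as was 1 of 134 ion channel genes, 1 of 101 cytochrome P450 genes and 1 of 62 serpins. Zinc finger genes named Zfp had 18 of 363 (4.96%) and solute carriers 17 of 369 (4.61%), both below the share of all genes. Of 44 collagens the only pair was Col4a4/Col4a3, and of 59 Rab GTPases 2 were in pairs.

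Lists of genes that bear on macrophages were short, so that the 7.17% of all coding genes amounts to few genes in each. None of 12 macrophage markers, 16 inflammatory cytokines and enzymes, 16 AP-1 and immediate early genes, 18 hypoxia genes and 10 antigen processing genes of the MHC class II region was in one, though Psmb9 and Tap1 of the last list face each other with ends that overlap, at -211. Of 37 chemokines only Ccl25 was, 133 bases from Elavl1, and of 33 interleukins only Il11, 83 bases from Tmem190. Of 11 interferon-stimulated genes only Ifit1 was (9.09%), 128 bases from 2010002M12Rik.

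The genes of the study's own design lay outside the set. Piezo1, on the minus strand of chromosome 8, had its nearest divergent coding start 16686 bases away, at the replication licensing gene Cdt1. Its neighbour Ctu2, a gene of tRNA thiolation, was a member, 79 bases from the ubiquitin ligase gene Rnf166, with 5′ ends at 122476143 and 122476064 on GRCm38. Lyz2, the lysozyme gene whose locus carries LysM-Cre, was 347226 bases from Cpm, the nearest such gene. Csf1r, the receptor for M-CSF, and Csf1, which encodes M-CSF, were in no pair either.

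Few pairs could be compared by list, since only 233 of the 1556 members were in any list. Both genes were in one of the 34 lists in 34 pairs, the same list in 17 and different lists in 17. The 17 from the same list were the 12 histone pairs, Mrpl46/Mrps11, Zfp944/Zfp758 at 53 bases, Zfp942/Zfp943 at 101, Col4a4/Col4a3 and Hspa1a/Hspa1l. Pairs across lists joined a cytosolic ribosomal protein to a complex I subunit (Rps28/Ndufa7) or a mitochondrial ribosomal protein to a proteasome subunit (Mrpl32/Psma2, 205 bases). Others joined 2 steps of mitochondrial translation, as Mrps12/Sars2 did at 148 bases, or an assembly factor of complex I to a factor of transcription-coupled repair, as Ndufaf2/Ercc8 did at 113. By name, 28 pairs (3.58%) shared a symbol stem, that is the first 4 characters, or the first 3 with the same letters before the digits. Besides those above they included S100a1/S100a13 at 43 bases, Tmem176b/Tmem176a at 109 and Duox2/Duoxa2 at 735; these examples were chosen after their names were seen.

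The chromosomes differed in how many of their genes were paired. Chromosome 8 had the largest share, with 9.97% of its coding genes, followed by chromosome 13 with 9.70%, 12 with 9.67% and 5 with 9.28%. Chromosome X had the smallest, with 37 of 936 genes (3.95%) in 19 pairs. The largest number of pairs, 71, was on chromosome 11. Without the olfactory and vomeronasal receptors and the Hist genes, chromosome 13 had 8.09%, chromosome 7 had 7.01% in place of 5.64%, and chromosome X had 3.99%, against 7.57% over all chromosomes.

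**Figure D4:**
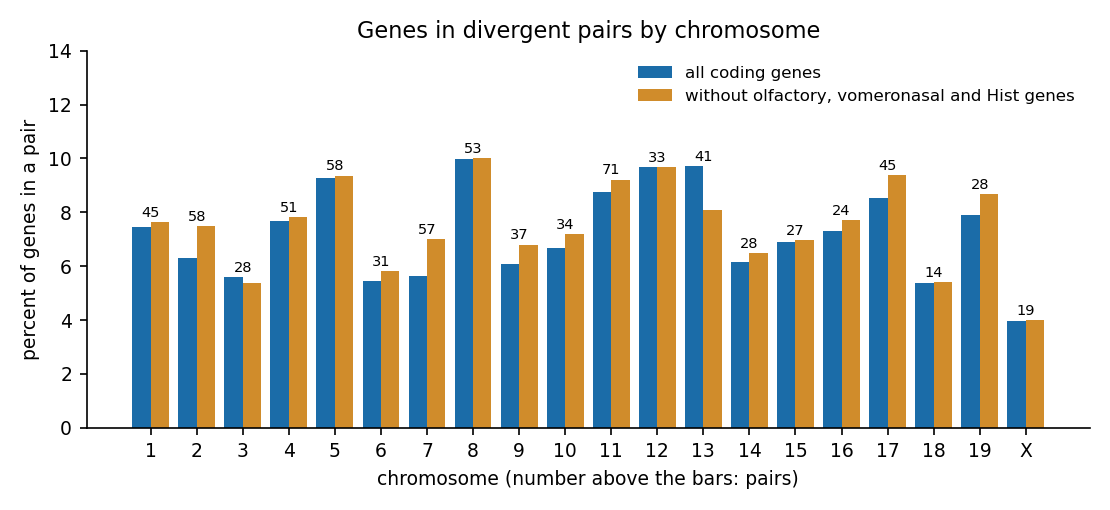
Percent of coding genes in a divergent pair on each chromosome, over all coding genes and without olfactory receptors, vomeronasal receptors and Hist genes, with the number of pairs above the bars. Chromosome 8 is highest at 9.97% and chromosome X lowest at 3.95%; leaving out these families lowers chromosome 13 to 8.09% and raises chromosome 7 to 7.01%.

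The promoters of paired genes were rich in CpG. Windows from 250 bases before to 50 bases after a RefSeq start could be matched to 1292 of the 1556 members (83.0%). The RefSeq start lay within 500 bases of the 5′ end in 1224 members (78.7%) and within 50 bases in 1031, so some windows lie away from that end. The median G and C content of the 1292 windows was 62.3%. The ratio of observed CpG to the number that the C and G content would give was a median of 0.85 (quartiles 0.72 and 0.97). By the usual limits, a ratio over 0.6 and over 50% G and C, 1067 windows (82.6%) were CpG-rich. The share was 82.0% for minus-strand and 83.1% for plus-strand partners, and partners that are close share part of their window.

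The comparison with unpaired genes was made on transcripts. Windows were matched to 77.0% of the coding genes in no pair, which is under the 80% that such a check needs, so the comparison of windows is void. Their values were a median ratio of 0.56 and 44.4% CpG-rich. The first 200 transcript bases in GENCODE M21 could be read for 98.7% of members and 96.9% of the others. There the median ratio was 0.78 in members and 0.60 in genes in no pair, and 70.6% against 47.4% were CpG-rich. These bases lie after the start and can include coding sequence, so they are not the promoter itself. In the deposited annotation, the longest coding transcript had 0 untranslated bases before the start codon in 2.25% of members and 12.2% of the others. The difference in G and C content was smaller, at 60.5% against 58.5%. Without olfactory and vomeronasal receptors, genes in no pair had a median ratio of 0.64 and 59.5% G and C, and 50.8% were CpG-rich.

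CpG richness was graded with distance. Of the members up to 100 bases from their partner, 91.2% had a CpG-rich window, of those at over 100 to 300 bases 81.8%, and of those at over 300 bases 69.5%. In the first 200 transcript bases, which run away from the interval, the shares were 78.0%, 69.6% and 60.1%. Gene length and exon number moved little along the same classes, with median spans of 16765, 18194 and 18791 bases and medians of 8, 8 and 9 exons.

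**Figure D5:**
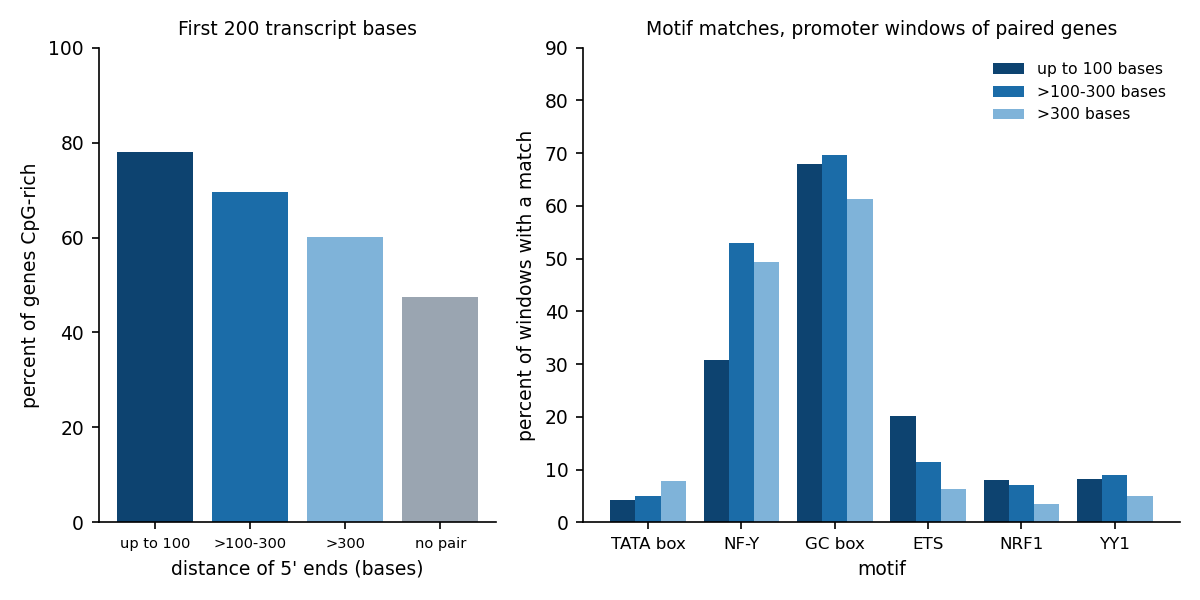
Left, percent of genes whose first 200 transcript bases are CpG-rich, for members by distance between the 5′ ends in bases and for coding genes in no pair; right, percent of promoter windows of members with a match to 6 motifs (NF-Y is the CCAAT motif), by the same classes. CpG-rich starts fall from 78.0% to 60.1% with distance and stand at 47.4% in genes in no pair, and ETS matches fall from 20.1% to 6.38% of windows.

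Motif matches, sought on both strands with overlaps allowed, were counted in the same windows. The GC box bound by the Sp1 family (GGGCGG) was in 67.2% of member windows and in 48.2% of all windows matched to a coding gene. CCAAT, bound by NF-Y, was in 43.9% and 39.2%. The ETS motif (CCGGAAGT) was in 13.5% and 5.55%, the YY1 motif (AAGATGGC) in 7.74% and 3.26%, and the NRF1 motif (GCATGCGC) in 6.66% and 3.76%. TATAAA was in 5.34% and 13.0%. The windows of all coding genes cover 77.4% of these genes, and the limit on the comparison named above applies.

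The motif shares changed along the distance classes of the members. ETS matches were in 20.1% of windows of members up to 100 bases from the partner, in 11.4% at over 100 to 300 bases and in 6.38% at over 300. CCAAT went the other way between the first classes, with 30.8%, 52.9% and 49.3%. TATAAA was in 4.18%, 5.07% and 7.80%. Of the 69 member windows with TATAAA, 15 were of histones, which lay mostly at over 100 to 300 bases. Shares by class without the histones were not counted. NRF1 matches were in 7.95%, 7.13% and 3.55%. The GC box changed less between the first classes, with 68.0%, 69.6% and 61.3%, and YY1 matches were in 8.16%, 9.01% and 4.96%.

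Histone promoters stood apart from the other members. Of the 25 histone members 23 had a window, with a median of 44.3% G and C, and 2 (8.70%) were CpG-rich. A CCAAT match was in 23 of the 23 and TATAAA in 15, as in the interval of Hist2h2ac/Hist2h2be printed above. ETS, NRF1 and YY1 matches were in 0 of 23. Without the histones, TATAAA was in 4.26% of the 1269 other windows. Their first 200 transcript bases, most of them coding, were CpG-rich in 23 of 25.

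The interval between the partners lay whole within a window for 493 pairs (63.0%), with 2 to 295 bases. For 327 of them it was in the windows of both partners, with the same letters each time. In the 447 intervals of at least 30 bases the median was 64.3% G and C and 9 CpG, and 12 of the 493 held 0 CpG. A GC box was in 46.7% of the 493, CCAAT in 30.8%, ETS in 8.32%, NRF1 in 4.67%, TATAAA in 1.62% and YY1 in 0.609%. No match to any of the 6 motifs was in 161 intervals, among them those of Orc3/Rars2 and Sdhd/Timm8b, which says only that these letters are not there. Wider pairs are missing from this count, since a window holds 300 bases.

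The pairs were largely the same in GENCODE M21, which annotates the same genome. Of the 782 pairs 717 (91.7%) met the rule there too, 555 (71.0%) with the same distance. In 42 pairs the 5′ ends overlapped in M21, in 3 they were over 1000 bases apart, and in 20 a gene was no coding gene there. M21 itself held 776 pairs.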

How the data were processed

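The file that the authors deposited is a gene annotation with 1-based coordinates on GRCm38 and 0 columns of library values; these coordinates are other than expression units, and no source used here gives its release. Bowtie2, TopHat2, Cufflinks, FastQC and CASAVA 1.8 are named without a role, per the submitters' processing notes. Python 3.11.15, numpy 2.4.6, scipy 1.17.1 and matplotlib 3.10.9 were used. Of the coding genes on these chromosomes, 48 without a protein-coding transcript were left out. Spans ran over protein-coding transcripts, and exons were counted in the transcript with the longest coding sequence. RefSeq windows (GRCm38.p6) were matched by identifier for 16501 genes, by symbol for 289 and by older symbol for 27, taking the start nearest to the 5′ end. Transcript bases came from GENCODE M21.

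The pair search was tested on simulated data and recovered 160 of 160 pairs. Each simulated gene had 1 transcript and each pair stood alone, so genes with several transcripts or in 2 pairs were not covered. No test was run, since the values describe 1 annotation without samples. The members, gene lists and alternatives were chosen with earlier results of these data known. Named pairs are the closest and widest, those at the limits, up to 3 closest per list with those joining 2 genes of a list, the extremes of length and exons, textbook pairs, and Piezo1, Ctu2 and Lyz2; any other was chosen after its values were seen. Some pairs that this rule takes are not reported here.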

Additional observations from a re-analysis of the deposited data

How the results depend on the processing

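Of 46 alternative values, 38 stayed close to the reported ones and 8 moved. Close meant within 1.5-fold for the number of pairs and within a 95% interval around the reported value for the others. The 1.5-fold range is wide, so settings that take out a few pairs could not move the number of pairs. The interval of the median exon number was 8 to 9, so that value too could hardly move. The intervals treat genes as independent, which partners are not, and that of the CpG ratio takes in the spread of the members alone. A change of direction could appear only among the alternatives of the CpG ratio, where 0 occurred. The comparison of spans among genes with at least 2 exons, which turned round, is not among the 46. The number of pairs ranged from 689 to 901 over the alternatives, against 782. By construction, a limit of 500 bases gave 6.42% of coding genes and a median distance of 125 bases, and a limit of 2000 bases gave 8.23% and 164. With 5′ ends of the longest coding transcripts the median distance of the pairs then found was 170. The union of coding exons in place of the span gave a median of 2684 bases, a different quantity. In the first 200 transcript bases, a measure added after seeing the data, the median CpG ratio of members exceeded that of genes in no pair by 0.19. In the promoter windows, the planned measure whose comparison is void because too few unpaired genes had a window, the difference was 0.29, or 0.34 when the comparison genes lay over 1000 bases from any other gene; the cause was not tested. Pairs without 2 histone genes, members without histones and RefSeq starts within 500 bases were also added after seeing the data. Windows of 500 bases before to 100 after the start were not run, as no genome sequence was used. No paired analysis was possible because the 4 groups hold 1 library each and their values were not used. Annotated 5′ ends are models, so a distance of a few bases is no measured spacing of transcription starts.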

Other observations

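Coding gene pairs whose annotated 5′ ends overlap by up to 1000 bases are the nearest relatives of the divergent pairs. There were 356 of them, with 710 genes (3.27% of coding genes), and 4 of these genes were also in a divergent pair. The median overlap was 318 bases (quartiles 165.5 and 577.5), and the median span of the genes was 16147 bases. Mitochondrial ribosomal proteins had 9 of 77 genes in such pairs, DNA replication 6 of 54, chaperones 8 of 76, DNA repair 5 of 105 and the replication-dependent histones 0 of 68. Mrpl47 and Ndufb5, a subunit of complex I, stood at a distance of -157 bases, and Hars and Hars2, the cytosolic and mitochondrial histidine tRNA synthetases, at -197; both were chosen after their values were seen. Counted together, either kind of pair held 2262 coding genes (10.4%), with 36.8% of the replication-dependent histones, which had divergent pairs alone, 36.4% of the mitochondrial ribosomal proteins, 34.5% of the RNA polymerase subunits and 33.3% of the respiratory chain list.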
